A study of Mus musculus with 12 samples.

Results

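Transcripts of 6 genes of the colony-stimulating factor (CSF) family were measured in sorted brain cells of old p16-3MR mice: the receptors Csf1r, Csf2ra, Csf2rb and Csf3r and the ligands Csf1 and Il34. The genes were chosen by symbol and are 6 of the 47643 gene identifiers in the count table. Of the 12270 genes with at least 10 counts over all libraries, 5 are members, and Il34 is the member that fell short. In these mice the p16 promoter drives a 3-part fusion protein, of which the red fluorescent part (RFP) served for sorting and the others are a luciferase and a shortened viral kinase. Fluorescence thus reports promoter activity and not the p16 transcript itself. Viable cells were sorted from the brains of 5 male mice of the C57BL/6 background, which all carried the p16-3MR genotype and were 113, 115, 116, 116 and 116 weeks old (mice 1 to 5). Each mouse gave 1 RFPneg and 1 RFPpos library, the populations that the study calls RFPLow and RFPHigh. The labels name no treatment, and no young or transgene-free mice are among the bulk libraries, so the comparison is of both populations within each mouse.

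CSF1R is a receptor tyrosine kinase on microglia and other macrophages, which depend on its signal to survive. Its ligands are CSF1, which glial cells make in the brain, and IL-34, which is mostly made by neurons. CSF2RA and CSF2RB form the receptor for CSF2 (GM-CSF), CSF2RB being the chain shared with the IL-3 and IL-5 receptors, and CSF3R is the receptor for CSF3 (G-CSF), best known from neutrophils.

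The depth on genes was 177287 to 415834 counts per RFPneg library (median 248471) and 222560 to 289713 per RFPpos library (median 242798). Levels are given as CPM, the share of a library’s counts after TMM scaling, a scaling that assumes that most genes do not change. A single count is worth between 2.39 and 5.54 CPM in an RFPneg library and between 3.56 and 5.05 CPM in an RFPpos library. The libraries count 1 tag near the 3′ end of a transcript, so levels were compared between genes without a correction for length. Against the marker lists, both populations were mixtures. The summed level of 20 microglia genes (such as P2ry12, Tmem119 and Sall1) was 16068 to 25157 CPM in RFPneg and 37188 to 52848 CPM in RFPpos, and 20 of the 20 were called higher in RFPpos. Of the tested markers of other cells, 7 of 8 neutrophil genes, 6 of 8 monocyte and dendritic cell genes, 8 of 8 endothelial genes and 7 of 8 oligodendrocyte genes were called lower, against 1 of 8 astrocyte genes. The same call was made for 6 of 7 mural and fibroblast genes, 2 of 7 neuron genes, 1 of 3 lymphocyte genes and 0 of 3 choroid plexus and ependymal genes. Over all tested genes 4.33% were called higher and 7.44% lower. Of 7 tested genes of brain-associated macrophages other than microglia, 0 were called in either direction, which those shares also give in so few. The log2 fold changes of these 7 genes ran from -1.46 to 1.49. Their list summed to 170 to 207 CPM in RFPneg and 145 to 324 CPM in RFPpos. Reads that fell on no gene made up 32.1% to 37.2% of RFPneg and 38.4% to 48.6% of RFPpos libraries, ranges that do not overlap, and their part in the results was not tested beyond a fit that includes them in the library sizes. In that fit Csf1r was still called higher, and 318 genes were called higher in place of 531. In bulk libraries, fewer cells of a type and less RNA per cell cannot be told apart.

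Csf1r was the member that rose. Its level in RFPneg cells was 1512, 972, 1082, 1336 and 1519 CPM in mice 1 to 5, from 204 to 478 counts a library. In RFPpos cells of the same mice it was 3993, 3019, 3260, 2920 and 2745 CPM, from 647 to 847 counts. Every RFPpos value was above every RFPneg value, and the highest was that of mouse 1. The mean was 1284 ± 249 CPM in RFPneg and 3187 ± 487 CPM in RFPpos (SD, n = 5). Csf1r rose by 1.32 on the log2 scale (SE 0.15, 95% interval 1.02 to 1.62), a 2.50-fold rise, with an adjusted p of 1.03e-15 in edgeR's quasi-likelihood test with mouse as a block and Benjamini-Hochberg adjustment. It was 1 of 5 tested members called higher, against 4.33% of all tested genes, and 0 of 5 were called lower, against 7.44% of all tested genes. By unadjusted p under 0.05 the members lower were also 0, as they were by DESeq2 and by limma with voom weights. By mean level, Csf1r ranked 36th of the tested genes in RFPneg cells and 19th in RFPpos cells.

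**Figure D1:**
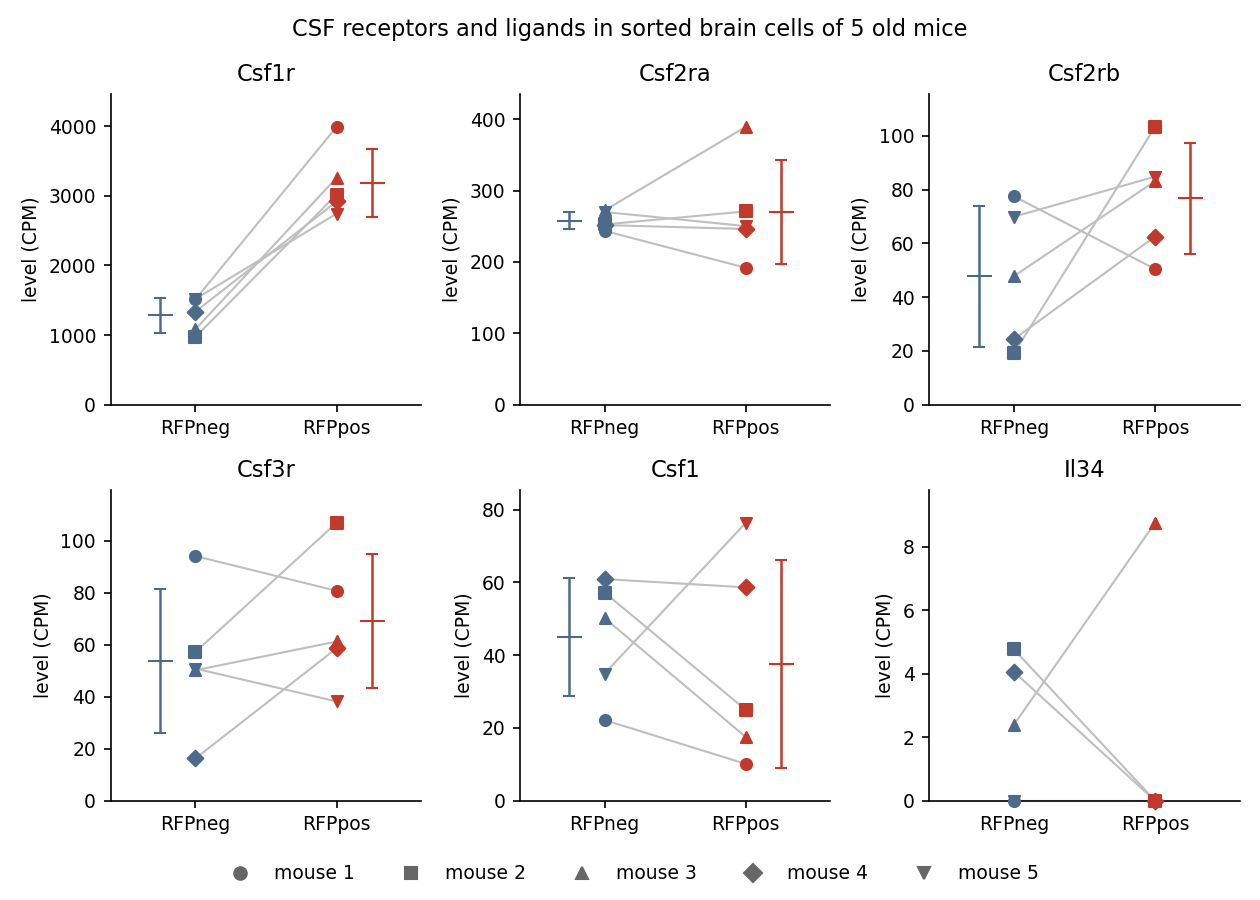
Level of each receptor and ligand in CPM (linear axes from 0, each panel on its own scale) in the RFPneg (blue) and RFPpos (red) library of each mouse, with a line joining the libraries of 1 mouse. Crosses with bars give the mean ± SD over 5 mice and are left out for Il34, which was at 0 in several libraries. The populations separate for Csf1r and overlap for the other genes.

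The remaining receptors did not pass the test. Csf2ra, the α chain that binds CSF2, was at 244, 253, 272, 252 and 270.1 CPM in RFPneg cells, from 44 to 114 counts. In RFPpos cells it was at 192, 271, 389, 246 and 250.3 CPM, from 38 to 89 counts. The RFPneg values lay inside the range of the RFPpos values, of which mouse 1 was lowest and mouse 3 highest. The means were 258 ± 12.5 and 269.7 ± 73.0 CPM (SD, n = 5), and the log2 fold change was 0.04 (SE 0.21, 95% interval -0.37 to 0.45, adjusted p = 0.951), and 2 of 5 mice were higher in RFPpos. This interval leaves out a rise as large as that of Csf1r. The sign of the small Csf2ra value turned under several other scalings, all of them with intervals that span 0 except that relative to microglia genes, given below.

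Csf2rb, the signalling β chain, was measured with few counts. RFPneg libraries held 14, 4, 20, 6 and 22 counts and RFPpos libraries 10, 29, 19, 16 and 20. The lowest values were those of mice 2 and 4 in RFPneg, and the populations overlapped. In CPM the means were 47.7 ± 26.2 in RFPneg and 76.9 ± 20.7 in RFPpos (SD, n = 5), with a log2 fold change of 0.76 (SE 0.38, adjusted p = 0.210) and higher values in 4 of 5 mice. With 1 mouse left out the value ranged from 0.47 (without mouse 2) to 1.07 (without mouse 1), not called in either case. The 95% interval of the log2 fold change, 0.02 to 1.5, is not adjusted for the number of genes and is compatible with almost no change as with a rise larger than that of Csf1r.

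Csf2rb2, a mouse copy of the β chain that serves the IL-3 receptor and was named for its kinship with Csf2rb, had 23 counts over the RFPneg libraries and 54 over the RFPpos libraries. Its log2 fold change was 1.27 (SE 0.57, adjusted p = 0.142), also not called. The copies are neighbours, 20031 bases apart (Csf2rb at chr15:78325752-78353847 on the plus strand, Csf2rb2 at chr15:78282507-78305721 on the minus strand, GRCm38). Of the words of 50 bases in the last 300 bases of their annotated transcripts, 10.4% of those of Csf2rb are also in Csf2rb2 and 4.18% of those of Csf2rb2 are also in Csf2rb, so that a part of the tags from either gene could be assigned to the other or to none.

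Csf3r had 17, 12, 21, 4 and 16 counts in RFPneg libraries and 16, 30, 14, 15 and 9 in RFPpos libraries. Mean levels were 53.7 ± 27.7 and 69.2 ± 26 CPM (SD, n = 5), the log2 fold change was 0.41 (SE 0.38, adjusted p = 0.623), and 3 of 5 mice were higher in RFPpos. The value ranged from 0.18 without mouse 4 to 0.59 without mouse 5, not called in either case. The populations overlapped, with the lowest value in RFPneg mouse 4 and the highest in RFPpos mouse 2. The 10 neutrophil genes summed to 2288 to 7211 CPM in RFPneg cells and to 0 to 188 CPM in RFPpos cells. In the RFPpos libraries of mice 4 and 5 the neutrophil list had 0 counts, and Csf3r had 15 and 9. Over the RFPneg libraries 70 counts of Csf3r stood beside 5840 of the neutrophil list, and over the RFPpos libraries 84 counts of Csf3r stood beside 90. The part of neutrophil RNA in the Csf3r values of either population was not tested.

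The ligands had few counts or none. Csf1 was at 22.1, 57.2, 50.2, 60.9 and 35.0 CPM in RFPneg cells, from 4 to 21 counts. In RFPpos cells it was at 10.1, 24.9, 17.5, 58.6 and 76.4 CPM, from 2 to 18 counts. The populations overlapped, the RFPpos libraries of mice 4 and 5 were high and that of mouse 1 was lowest. The log2 fold change was -0.38 (SE 0.46, adjusted p = 0.736), with 1 of 5 mice higher in RFPpos. It ranged from -0.85 without mouse 5 to -0.11 without mouse 3 and was not called in either case. The RFPpos library of mouse 1 was also lowest in the summed level of 8 astrocyte genes, at 1025 CPM, against 2855 to 5277 CPM in RFPpos cells of the other mice. The highest sum, 5277 CPM, was that of mouse 3, where Csf1 was at 17.5 CPM, the lowest RFPpos value after that of mouse 1. The part of astrocyte RNA in the Csf1 values was not tested.

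Il34 had 0, 1, 1, 1 and 0 counts in RFPneg libraries and 0, 0, 2, 0 and 0 in RFPpos libraries, below the minimum of 10 counts for the test. With every gene of at least 1 count tested, it was not called either. A count of 0 allows up to 3 counts, which is 7.17 to 16.6 CPM in an RFPneg library and 10.7 to 15.1 CPM in an RFPpos library. Csf2, Csf3, Il3 and Il5, the ligands of the other receptors, had 0 counts in all 10 libraries, as had Il5ra, the α chain of the IL-5 receptor. Over the 5 libraries of a population, a count of 0 allows up to 2.19 CPM in RFPneg and 2.50 CPM in RFPpos, for counting error only. Transcripts of these ligands were therefore not detectable at this depth, which does not show that they are absent.

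In order of level, Csf1r came first and Csf2ra second in both populations, and each gap was larger than the spread between mice. In RFPneg cells Csf3r (53.7 CPM), Csf2rb (47.7 CPM) and Csf1 (45.1 CPM) followed and did not differ beyond their spread. In RFPpos cells Csf2rb (76.9 CPM), Csf3r (69.2 CPM) and Csf1 (37.5 CPM) followed. There Csf2rb and Csf3r did not differ beyond their spread, while Csf1 was below Csf2rb in all 5 libraries, by 15 against 16 counts in mouse 4 and 18 against 20 in mouse 5, and its range overlapped those of both. Il34 was last in both. Of the counts of the 4 receptors, Csf1r made up 74.5% to 82.0% in RFPneg libraries and 85.9% to 92.5% in RFPpos libraries, and Csf2ra 12.6% to 19.4% and 4.44% to 10.3%. Neither pair of ranges overlapped.

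Because RFPpos libraries held more microglia RNA, every gene was also compared relative to the 20 microglia genes, with their summed counts as the library size. No member is in that list. This comparison takes the list as constant, and the median log2 fold change of all tested genes was -1.26 on this scale, against -0.15 with TMM. Of the 20 list genes, 2 were called higher on this scale and 0 lower, while limma called 3 higher and 2 lower. The 2 were Laptm5 (0.62, adjusted p = 0.00117) and Fcrls (0.57, adjusted p = 0.0182), so the list was not strictly constant. The value of Csf1r on this scale was near 0. Csf1r had 6.01, 6.05, 5.97, 8.18 and 6.72 counts per 100 microglia-gene counts in RFPneg cells and 7.55, 7.10, 7.74, 7.06 and 7.38 in RFPpos cells. The RFPpos values were close together, the RFPneg value of mouse 4 was the highest of all, and 4 of 5 mice were higher in RFPpos. The relative log2 fold change was 0.17 (SE 0.16, 95% interval -0.13 to 0.48, adjusted p = 0.357), and with TMM scaling the rise of Csf1r was larger than those of 16 of the 20 microglia genes, which ran from 0.76 (Gpr34) to 1.76 (Laptm5) on the log2 scale. With the 8 genes of the list most restricted to microglia (P2ry12, Tmem119, Sall1, Siglech, Gpr34, P2ry13, Olfml3 and Fcrls), a list chosen after the data were seen, the relative value of Csf1r was 0.14 (adjusted p = 0.510).

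Csf2ra was lower relative to the list. It had 0.97, 1.57, 1.5, 1.54 and 1.19 counts per 100 microglia-gene counts in RFPneg cells and 0.36, 0.64, 0.92, 0.60 and 0.67 in RFPpos cells. Every mouse was lower in RFPpos and the populations did not overlap. The relative log2 fold change was -1.11 (SE 0.23, 95% interval -1.55 to -0.66, adjusted p = 1.12e-05), near the median of all tested genes, and between -1.22 and -1.04 when each mouse was left out in turn. Monocytes, dendritic cells and neutrophils also carry this receptor. The monocyte and dendritic cell list summed to 991 to 1372 CPM in RFPneg cells and to 95.9 to 266 CPM in RFPpos cells. With TMM scaling 6 of its 8 genes were called lower, against 7.44% of all tested genes, and 2 were not called. Their log2 fold changes ran from -6.62 to 0.93. The part of these cells in the Csf2ra values was not tested.

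**Figure D2:**
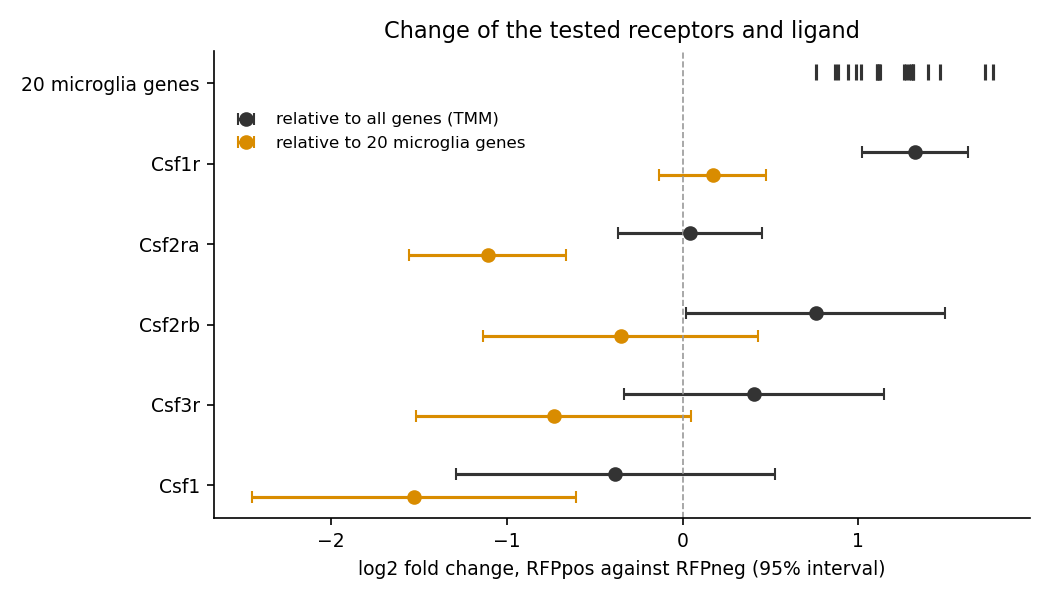
Log2 fold change of RFPpos against RFPneg with its 95% interval for the 5 tested members, after TMM scaling (black) and relative to the summed counts of 20 microglia genes (orange), with the TMM values of those 20 genes as ticks. Csf1r lies among the ticks at 1.32 and near 0 on the relative scale, while Csf2ra lies at 0.04 and at -1.11.

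Csf1 was at -1.53 relative to the list (log2 fold change, SE 0.47, adjusted p = 0.00449), which was no longer called without mouse 3 (-1.26, adjusted p = 0.0564). With each mouse left out in turn it ran from -2.13 (without mouse 5, adjusted p = 0.000147) to -1.26. Csf2rb was at -0.35 (adjusted p = 0.465) and Csf3r at -0.73 (adjusted p = 0.118), the opposite signs of their TMM values. Leaving out 1 mouse moved Csf2rb to between -0.62 (without mouse 2) and -0.04 (without mouse 1). It moved Csf3r to between -0.95 (without mouse 4) and -0.58 (without mouse 1), and neither gene was called. Thus 2 of 5 tested members were called lower relative to microglia genes, against 45.7% of all tested genes, a share near that background. No member was called higher (0 of 5, also 0 by unadjusted p under 0.05 and 0 by limma with voom weights), against 0.122% of all tested genes.

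The ratio of both receptors within a library needs no scaling. It was chosen after the values were seen. Csf1r had 6.20, 3.85, 3.97, 5.31 and 5.62 counts per Csf2ra count in RFPneg cells and 20.8, 11.1, 8.37, 11.9 and 11.0 in RFPpos cells. All 5 mice were higher in RFPpos and the populations did not overlap, with mouse 1 far above the others. The mean difference was 1.30 ± 0.33 on the log2 scale (SD, n = 5), and 1.18 without mouse 1. An exact two-sided permutation test within mice gave p = 0.0625, the smallest that 5 pairs allow (2 of 32 assignments). Of the 3 ratios computed, those to Csf3r (0.84 ± 0.93, SD, exact permutation p = 0.125) and to Csf2rb (0.47 ± 1.08, SD, exact permutation p = 0.5) varied more between mice, and adjusted over the 3 the p for Csf2ra was 0.188. When each mouse was left out in turn, the mean log2 difference ran from 1.18 to 1.38 for Csf2ra. For Csf3r it ran from 0.64 to 1.23 and for Csf2rb from 0.08 to 0.79.

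**Figure D3:**
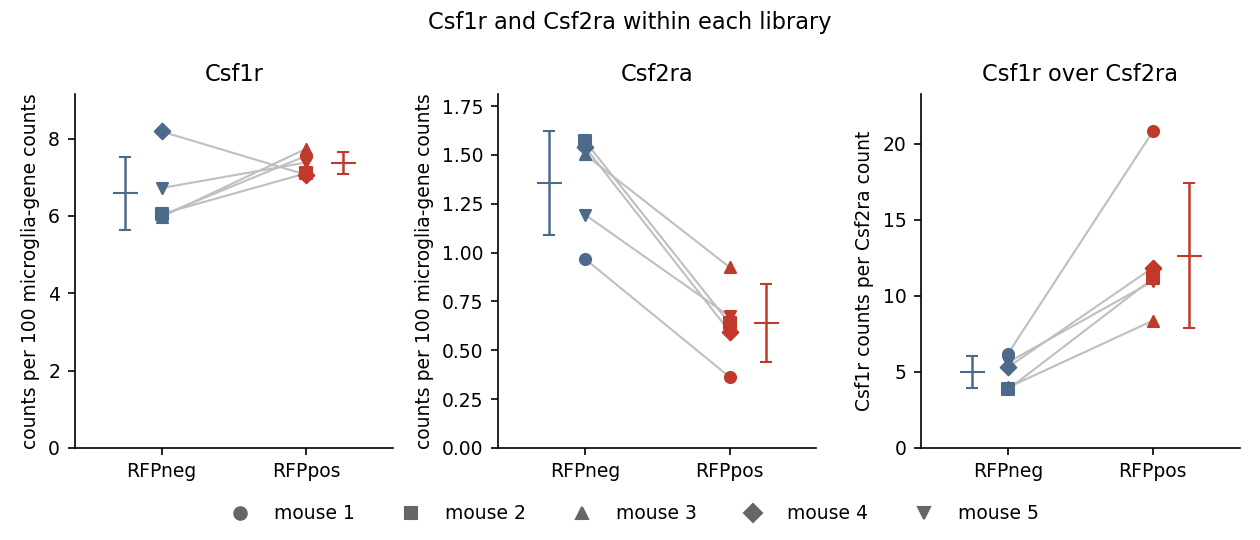
Csf1r and Csf2ra as counts per 100 counts of the 20 microglia genes, and Csf1r counts per Csf2ra count, in each mouse (linear axes from 0, bars mean ± SD over 5 mice). Csf1r per microglia count overlaps between populations, Csf2ra per microglia count is lower in all 5 RFPpos libraries, and their ratio is higher in all 5.

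Of the genes that act below CSF1R, 11 rose beside it. Of 26 listed genes of CSF1R signalling, 25 were tested, 11 were called higher, 1 was called lower and 13 did not pass the test. The shares, 44% higher and 4% lower, stand beside 4.33% and 7.44% of all tested genes. The list had a median log2 fold change of 0.71, against -0.15 over all tested genes. Tyrobp, an adaptor that microglial receptors share, went from 587 ± 125 to 964 ± 213 CPM (SD, n = 5; log2 fold change 0.71, adjusted p = 0.000842). Grb2, the adaptor that links receptor kinases to the Ras pathway, rose by 0.85 (adjusted p = 0.000197), the regulatory PI3-kinase subunit Pik3r1 by 0.91 (adjusted p = 7.81e-05) and the Src-family kinase Lyn by 1.19 (adjusted p = 1.14e-07), all on the log2 scale. The 1 that fell was Fyn, another Src-family kinase, which is also used by oligodendrocytes and neurons (log2 fold change -1.39, adjusted p = 0.0121, and 0.0632 by DESeq2, which did not call it). Relative to microglia genes 0 rose (also 0 by unadjusted p under 0.05 and 0 by limma) and 7 fell, Tyrobp among them at -0.44 (adjusted p = 0.0382), a share of 28% against 45.7% of all tested genes.

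JAK-STAT genes act below the CSF2 and CSF3 receptors. Of 11 listed, 10 were tested, 0 were called higher (1 by unadjusted p under 0.05, 0 by DESeq2 and 0 by limma), against 4.33% of all tested genes, and 2 were called lower (1 by DESeq2 and 2 by limma), a share of 20% against 7.44%. The count of 0 is near what the share over all genes gives in 10. The median log2 fold change was -0.51. Relative to microglia genes 8 of 10 were called lower, a share of 80% against 45.7% of all tested genes. The 2 are targets of STAT5. Socs2, a feedback inhibitor of cytokine signalling, fell from 53.1 ± 26 to 10.9 ± 7.07 CPM (SD, n = 5; log2 fold change -2.24, adjusted p = 0.00144). Pim1, a kinase that promotes survival, fell from 50.3 ± 17.3 to 16.3 ± 9.95 CPM (SD, n = 5; log2 fold change -1.65, adjusted p = 0.0210, and 0.0861 by DESeq2, which did not call it). Both were lower in 5 of 5 mice. Jak2, the kinase bound to CSF2RB, was at -0.37 (log2 fold change, adjusted p = 0.75) and Stat5b at -0.42 (adjusted p = 0.753). The other tested genes of the list were not called either. Above 0 were Jak1 at 0.42 (adjusted p = 0.226), Tyk2 at 1.26 (adjusted p = 0.404) and Stat3 at 0.36 (adjusted p = 0.457). Below 0 were Stat5a at -0.84 (adjusted p = 0.719), Cish at -2.28 (adjusted p = 0.346) and Socs3 at -0.61 (adjusted p = 0.742). Neutrophil and endothelial markers were called lower in the same libraries, and the part of those cells was not tested.

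Of the receptor kinases of the same family as CSF1R, 3 of 4 were tested and 0 were called higher (0 by unadjusted p under 0.05, 0 by DESeq2 and 0 by limma), which 4.33% over all tested genes also gives in so few. The 2 called lower (1 by DESeq2, 2 by limma) stand beside 7.44% of all tested genes. Pdgfrb, which marks pericytes, had 66 counts in RFPneg and 9 in RFPpos (log2 fold change -2.94, adjusted p = 8.05e-05). Pdgfra, which marks oligodendrocyte precursors, had 19 counts in RFPneg and 0 in RFPpos, and was called lower (adjusted p = 0.0158, and 0.0767 by DESeq2). Kit, with 11 counts in all, was not called and Flt3, with 6, was not tested. Ptprz1, a receptor for IL-34 that astrocytes and oligodendrocyte precursors express, stood at 476 ± 128 and 553 ± 276 CPM (SD, n = 5; log2 fold change 0.06, adjusted p = 0.920), with 75.7 CPM in the RFPpos library of mouse 1 against 606 to 792 CPM in those of the other mice. Relative to microglia genes Ptprz1 was called lower (log2 fold change -1.11, adjusted p = 1.53e-06), as were 45.7% of all tested genes, and 0 of 5 mice were higher in RFPpos.

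**Figure D4:**
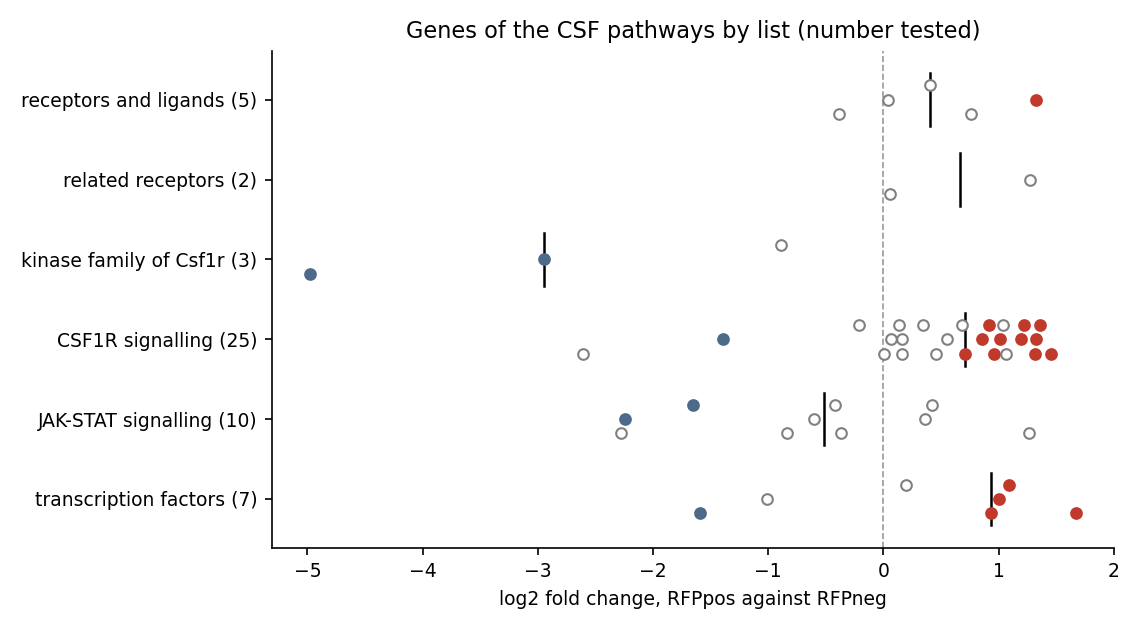
Log2 fold change (TMM) of each tested gene by list, with the number tested in brackets. Filled points passed the test (red higher, blue lower in RFPpos), open points did not, and black lines give medians. CSF1R signalling has 11 filled red points and 1 blue, JAK-STAT signalling 2 blue and none red. Pdgfra, the leftmost point, was at 0 counts in RFPpos, so that its fitted value is no measured size.

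Transcription factors known to act at the Csf1r gene were counted next. All 7 listed were tested, 4 rose and 1 fell, shares of 57.1% and 14.3% beside 4.33% and 7.44% of all tested genes. Irf8 went from 266 ± 68.6 to 521 ± 63.3 CPM (SD, n = 5; log2 fold change 1.00, adjusted p = 8.69e-06), and Cebpa from 73.9 ± 28.3 to 239.7 ± 50.9 CPM (SD, n = 5; log2 fold change 1.67, adjusted p = 5.31e-09). Spi1, which encodes PU.1, the factor that myeloid cells need, rose by 0.94 (adjusted p = 0.00147) and Runx1 by 1.09 (adjusted p = 0.00248), both on the log2 scale. Ets2 fell (log2 fold change -1.59, adjusted p = 0.0458), a call that neither DESeq2 nor limma made (0 lower by either), and DESeq2 called 2 of the factors higher, not Spi1 (adjusted p = 0.102) or Runx1 (adjusted p = 0.0761). Relative to microglia genes none of the 4 was called, with Cebpa at 0.54 (adjusted p = 0.113) and Spi1 at -0.22 (adjusted p = 0.492). On that scale 0 of 7 were called higher (also 0 by unadjusted p under 0.05 and 0 by limma), against 0.122% of all tested genes, and 2 were called lower, Ets1 at -2.18 (adjusted p = 1.14e-06) and Ets2 at -2.73 (adjusted p = 1.22e-05), a share of 28.6% against 45.7%.

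Promoter sequence of 3 members is shown for its matches to the PU.1 core GAGGAA, since the transcript of that factor was called higher by edgeR. The 250 bases before the start site in RefSeq (GRCm38.p6) were searched on both strands, and sequences were matched for Csf1, Csf2ra and Csf3r. Csf1r, Il34 and Csf2rb had no promoter sequence to search. Of 32536 mouse promoters of this length 23.4% hold the motif. Csf2ra (chr19:61228419-61228518, minus strand) has 2 matches side by side, starting at -14 and -8 from the start site, Csf3r (chr4:126024559-126024588, plus strand) has 1 at -86, and Csf1 (chr3:107760470-107760569, minus strand) has 0. Runx1 was also called higher by edgeR, and the RUNX core TGNGGT (N for any base) is held by 40.2% of these promoters. It has 1 match in Csf3r, at -61 on the opposite strand and outside the stretch shown. Csf2ra and Csf1 have 0. The stretches run 5′ to 3′ toward the gene, 100 bases before the start for Csf2ra and Csf1 and 30 around the PU.1 match for Csf3r, with PU.1 matches in capitals. GENCODE M21 begins Csf3r and Csf2ra further upstream than RefSeq does, so that the Csf3r stretch and the last bases of the Csf2ra stretch, with its match at -8, lie inside the genes as GENCODE places them.
Csf2ra: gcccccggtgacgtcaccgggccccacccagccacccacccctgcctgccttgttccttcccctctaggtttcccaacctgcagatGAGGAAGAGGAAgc
Csf3r: aacctccttcctgaGAGGAAggggctgtct
Csf1: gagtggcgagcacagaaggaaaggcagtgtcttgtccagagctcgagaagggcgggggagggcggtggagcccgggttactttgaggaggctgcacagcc
A match is a run of letters and not a site shown to be bound. Csf2ra and Csf3r, which hold the PU.1 core, were not called in these libraries with TMM scaling. Neither was Csf1, which lacks it in this window. Csf2rb2, also searched and not called, holds a PU.1 match at -167 and a RUNX match at -232, both on the opposite strand. The promoter of Csf1r, the member called higher, was not searched, so matches cannot be set beside that call.

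Cmtm6, Laptm5, Ppfia4, Dhrs3 and Basp1 had the patterns most like that of Csf1r over the 10 libraries, with Pearson correlations of log2 CPM between 0.984 and 0.989 among 4243 genes with a mean of at least 40 CPM. These correlations describe libraries that fall into both populations and share depth and cell makeup, and 160 genes were above 0.9. Within the 5 RFPpos libraries alone the correlations of the 5 genes with Csf1r ran from 0.623 (Laptm5) to 0.945 (Basp1). Laptm5 is in the microglia list, and the other 4 are not. Log2 fold changes of the 5 ran from 0.90 (Dhrs3) to 1.76 (Laptm5).

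The members lie on different chromosomes of GRCm38 (GENCODE M21), all as protein-coding genes. Csf1r is at chr18:61100598-61132149 on the plus strand, 15537 bases after the end of Pdgfrb. Csf1 is at chr3:107741048-107760469 (minus strand), Il34 at chr8:110741829-110805924 (minus strand), Csf2ra at chr19:61223957-61228429 (minus strand) and Csf3r at chr4:126024550-126044440 (plus strand). Csf1r overlaps Hmgxb3 on the opposite strand, which had 14 counts in all, and no other gene that overlaps a member had a count.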

How the data were processed

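The authors prepared QuantSeq 3′ FWD libraries, processed reads with the Lexogen FWD UMI pipeline and deposited raw counts per gene for 10 bulk libraries. The build for these counts is not given in the sources used here, beyond mm10 in the submitters' processing notes. Reads on no gene (32.1% to 37.2% in RFPneg, 38.4% to 48.6% in RFPpos) and ambiguous reads (0.295% to 0.436%) stayed out. Symbols were found for 47224 of 47643 identifiers.

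Genes with a summed count of at least 10 were fitted with edgeR 4.0.16 in R 4.3.3 (quasi-likelihood test, TMM, mouse as a block, Benjamini-Hochberg over all genes tested, calls at adjusted p under 0.05), and again with library sizes from the microglia list. Pairing comes from the methods, as both populations came from the same mice. Correlations of same-mouse deviations were 0.12, -0.02, 0.06, 0.00083 and 0.0039. DESeq2 1.42.0 and limma 3.58.1 were alternatives. Scripts were tested on simulated data. Replicates are separate mice.

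The members and lists were chosen with earlier results of these data known. Named genes are the members, at most 4 per list (the highest mean CPM among those called, then those with 0 counts) and the 5 genes most correlated with Csf1r. Other names (Fyn, Ets1, Ets2, Jak1, Jak2, Tyk2, Stat3, Stat5a, Stat5b, Cish, Socs3, Kit, Flt3, Csf2rb2, Ptprz1) were chosen after their values were seen. Single-cell samples were not analysed here.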

Additional observations from a re-analysis of the deposited data

Results flagged for a closer look

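In 28 groups of 5 libraries examined, 3 held a library far from the other 4. Chance gives about 1 in 20, a rate that does not hold for a gene with counts in a single library, where any count stands apart, as for Il34. Il34 was at 8.75 CPM (2 counts) in the RFPpos library of mouse 3 and at 0 in the other 4 RFPpos libraries. Ptprz1 was at 75.7 CPM in the RFPpos library of mouse 1, against 606 to 792 CPM in the others. The same library had 20.8 Csf1r counts per Csf2ra count, against 8.37 to 11.9 in the others.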

How the results depend on the processing

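The rise of Csf1r kept its direction and its call in 16 of 17 alternatives (log2 fold change 1.09 to 1.44), 1.31 without the replicate block, and was 0.17 with library sizes from the microglia list. Members called became 0 higher and 2 lower on that scale. Csf2ra changed sign, without being called, with median-of-ratios factors (-0.0085), library size alone (-0.031), reads on no gene included (-0.19), edgeR's filterByExpr (-0.036), DESeq2 (-0.012) and without mouse 3 (-0.074, the range over mice left out being -0.074 to 0.12). On the microglia scale it was -1.11, called, Csf2rb was -0.35 and Csf3r -0.73. Genes called higher numbered 531 in the reported fit, 588 without the replicate block, 15 on the microglia scale, 318 with reads on no gene included, 276 by DESeq2 and 338 with a log2 fold change above 1 as well. Genes called lower numbered 913, 1064 without the block, 5613 on the microglia scale, 479 with filterByExpr and 573 by DESeq2. The block changed no call of a member. DESeq2 called 8 of the CSF1R signalling genes higher in place of 11. Csf2rb, Csf3r and Csf1 had 2 to 30 counts a library, and why they were not called was not tested. Il34 and the ligands at 0 cannot be compared.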
